A study of Danio rerio with 6 samples.

Results

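Genes for translation initiation factors (eIF) and elongation factors (eEF) were followed in 6 zebrafish tumours with an Affymetrix array per tumour. The members are all probe sets whose single gene symbol in the array's annotation begins with eif1 to eif6 or with eef1 or eef2. This rule, which uses names and no measured value, gave 80 of 15502 tested probe sets, for 64 of 8793 named genes. The members were chosen with earlier results of these data known, so comparisons with all genes describe them and are not tests. Small round blue cell tumours, SRBCT below (3 arrays), came from fish with the transgene Tg(HSP:EWS-FLI1), a transposon injected into embryos in which the HSP70 heat shock promoter drives the human EWS-FLI1 fusion protein, so that insertions are somatic and may differ between fish. Malignant peripheral nerve sheath tumours, MPNST below (3 arrays), came from fish without that transgene. The p53 mutation M214K was homozygous in every fish of both groups. The labels describe the SRBCT as resembling Ewing sarcoma, and they give no age or sex for the fish. Values are RMA expression values on a log2 scale, and each difference is SRBCT minus MPNST, so that a positive one is higher in SRBCT. A gene with several probe sets is described by the one with the highest mean over the 6 arrays. Errors are SD over n = 3 arrays or standard errors (SE) of the limma fit, and a probe set was called changed at a Benjamini-Hochberg adjusted p under 0.05 over all 15502.

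Translation initiation brings the initiator tRNA and a small ribosomal subunit to the start codon of an mRNA. eIF2 carries the initiator tRNA, eIF2B recharges eIF2 with GTP, eIF3 is the large scaffold on the small subunit, and the eIF4 factors bind the mRNA cap (eIF4E), unwind the leader (eIF4A) and join both to the ribosome (eIF4G). In elongation, eEF1A delivers aminoacyl-tRNA, the eEF1B subunits recharge it, and eEF2 moves the ribosome along. Fish genomes hold several paralogs of many of these genes, and oocytes, which store mRNA for later use, are known to express their own forms of some cap-binding and poly(A)-binding proteins. Growing tumours are known for a high demand on protein synthesis.

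Some arrays stood apart in ways that touch the results below. SRBCT 3 correlated at 0.864 and 0.892 with the other SRBCT arrays and at 0.875 to 0.916 with the MPNST arrays. The neural crest gene sox10 was present in both tumour types, at 10.34 to 11.01 in SRBCT and 10.45 to 10.75 in MPNST. nkx2.2a, whose human ortholog is a marker of Ewing sarcoma, had values of 10.76, 9.58 and 4.18 on SRBCT 1, 2 and 3, against 3.48 to 3.86 in MPNST. Oocyte markers (20 of 30 listed genes measured) had a median level of 4.34 to 5.32 in SRBCT and of 10.58, 9.0 and 8.70 on MPNST 1, 2 and 3. Liver markers (9 of 12 measured) had a median of 4.44 to 4.89 in SRBCT and of 10.19, 4.17 and 4.35 on MPNST 1, 2 and 3, and intestine and pancreas markers (11 of 16 measured) were highest on SRBCT 3 (11.10, against 4.85 to 7.78 on the other arrays). As a sign of RNA integrity, GAPDH probes near the 3' end exceeded those near the 5' end by 0.41 to 0.84 in SRBCT and by 1.04 to 1.10 in MPNST. For muscle actin the same quantity was -0.21 to 1.28 in SRBCT and -1.0 to -0.66 in MPNST. The part of these tissue markers and RNA measures in the differences below was not tested.

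Of the translation factor genes 1 passed the test: eif4e1b, a divergent form of the cap-binding protein eIF4E, fell 9.62-fold in SRBCT. It was the only called probe set among the 80, against 0.903% of all tested probe sets (0.813% for falls), and 0 were called higher (0.0903% of all). At an unadjusted p under 0.05, 8 of the 64 genes passed, against 15.7% of all genes. In 12 of the 80 probe sets every array of one group lay beyond the arrays of the other, against 22.6% of all probe sets. Of these 12, 9 were higher in SRBCT, against 13.2% of all probe sets, and 3 were lower, against 9.34% of all. They stood for 11 genes by their brightest probe set and for a second probe set of eif2ak3. The median difference of the 64 genes was 0.30, beside 0.07 for all genes and 0.00 for genes at or above the median level. Of the 64, 41 were above 0 (64.1%, against 55.9% of all genes). By probe set the median difference of the 80 was 0.14, beside 0.09 for all tested probe sets. Of the 80, 45 were above 0, a smaller share than the 9156 of all 15502. The larger share above 0 was thus seen by gene, with the brightest probe set of each, and not by probe set.

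**Figure D1:**
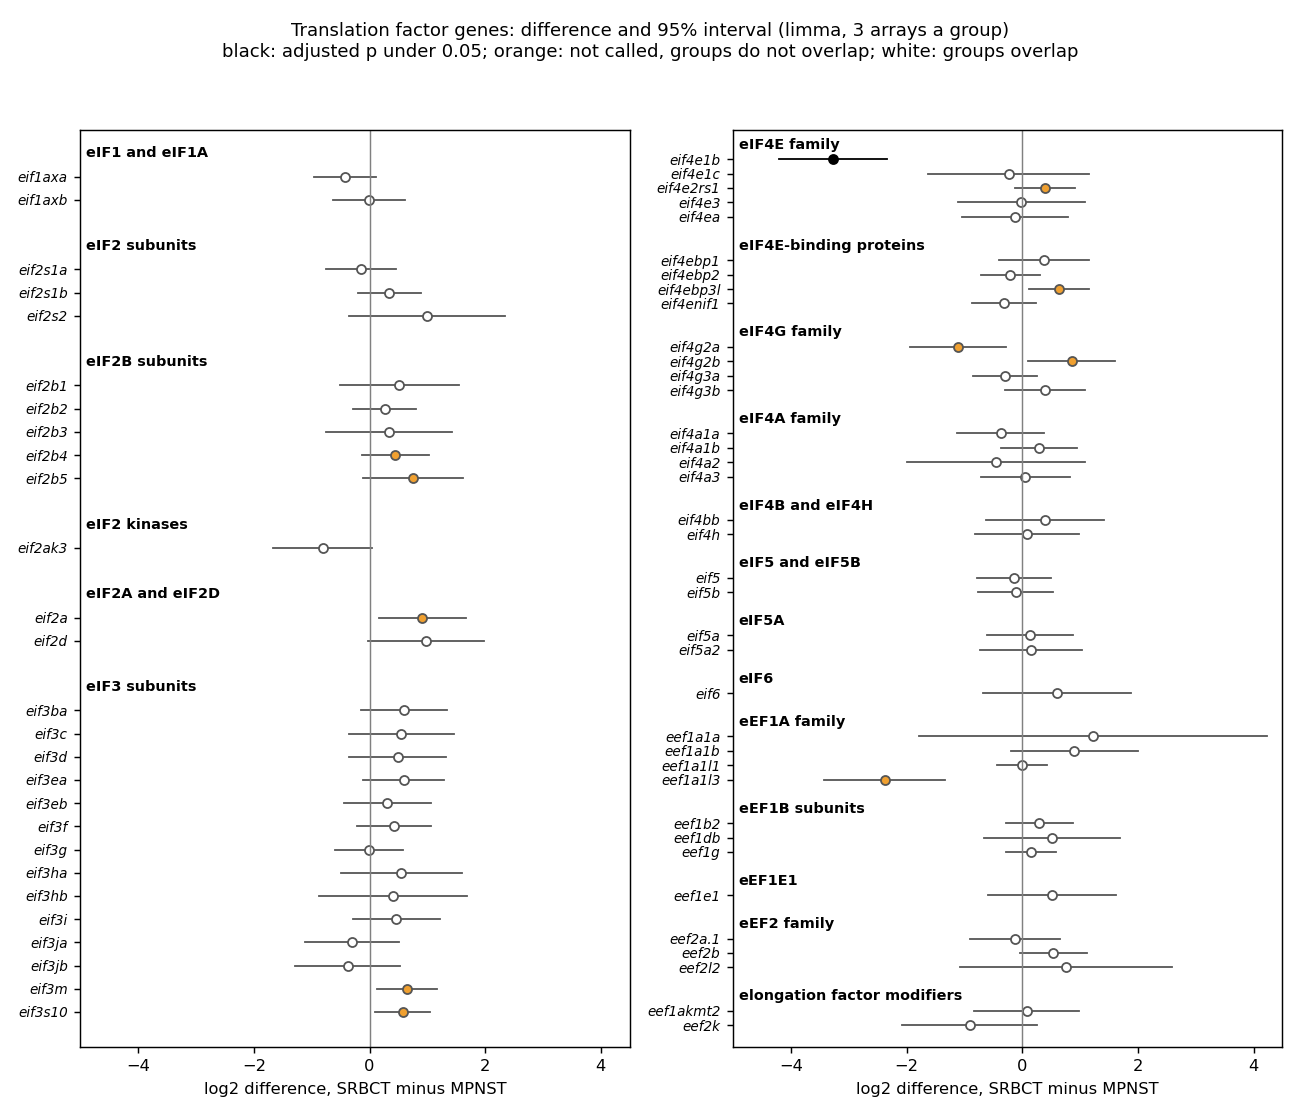
Log2 difference between SRBCT and MPNST for each of the 64 translation factor genes, grouped by complex, with the 95% interval of the limma fit over 3 arrays a group. eif4e1b (-3.27) is the only gene called, eef1a1l3 (-2.38) is the next in size, and the eIF3 subunits other than eif3ja, eif3jb and eif3g lie a little above 0.

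The cap-binding eIF4E family divided into 1 gene with a large fall and 4 genes with small differences. eif4e1b is known in zebrafish mainly from early embryos, gonads and muscle. Its values were 4.36, 4.08 and 4.90 on SRBCT 1, 2 and 3, against 8.44, 7.45 and 7.25 on MPNST 1, 2 and 3. The groups were separated by more than 2 log2 units, with means of 4.45 ± 0.42 in SRBCT and 7.71 ± 0.64 in MPNST (difference -3.27, SE 0.39, limma adjusted p 0.026). Over the alternatives that keep all probe sets the adjusted p ranged from 0.00961 to 0.147. Leaving out probe sets with a mean under 5.57 gave 0.0068, but eif4e1b passes that filter only through its MPNST level. The call was kept without SRBCT 3 (adjusted p 0.00961), when 3.68% of all probe sets were called lower, and without MPNST 1 (0.0355), when 0.671% were. It was lost without SRBCT 1 (0.147), SRBCT 2 (0.0795), MPNST 2 (0.106) or MPNST 3 (0.0619), and the difference stayed between -3.5 and -2.90.

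The oocyte markers followed the same division of the arrays as eif4e1b. All 20 had a difference below 0, with a median of -4.39. In 18 the groups did not overlap, all lower in SRBCT, against 9.34% of all probe sets. By the limma test 10 fell, against 0.813% of all probe sets. The marker list was chosen with earlier results of these data known, so these counts describe the markers and are not a test. Among the 10 were the egg coat gene zp3f.1 (-4.94, adjusted p 0.00688) and zar1l, which encodes a maternal RNA-binding factor (-4.95, adjusted p 0.0157). The count of 10 was 13 without SRBCT 3, 11 without MPNST 1, 4 without SRBCT 2, 3 without MPNST 3, 1 without MPNST 2 and 0 without SRBCT 1. In the same order, the share of all probe sets called lower was 3.68%, 0.671%, 0.464%, 0.348%, 0.232% and 0.148%. Within MPNST, eif4e1b and the marker median were both highest on array 1. In bulk tumour RNA, fewer cells of a type and less RNA per cell cannot be told apart. Muscle is also known to express eif4e1b, and the 6 skeletal muscle markers measured had median levels of 4.62 to 6.08 in SRBCT and 4.46 to 4.53 in MPNST.

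The other genes of the eIF4E family differed by less than 1 log2 unit and were not called. eif4ea, the closest to the general cap-binding protein, was at 7.41, 8.25 and 6.80 in SRBCT and at 7.52, 7.78 and 7.53 in MPNST (difference -0.12, 95% interval -1.05 to 0.80). eif4e1c, a paralog found in fish, differed by -0.23 (interval -1.63 to 1.16), and eif4e3 by -0.02 (interval -1.11 to 1.08). The other probe set of eif4e1c differed by -0.38 and that of eif4e3 by -0.39. eif4e2rs1, of the eIF4E2 class known to repress translation of bound mRNA, was at 7.60 to 8.19 in SRBCT and at 7.43 to 7.57 in MPNST, without overlap (difference 0.40, adjusted p 0.426). Set against each of these 4 paralogs within the same array, eif4e1b was lower in SRBCT by a further 3.03 to 3.66 log2 units (SE 0.43 to 1.04). For each of the 4 contrasts the two-sided exact permutation p was 0.1, which is the lowest value possible with 3 arrays a group, and the adjusted p over the 36 paralog pairs compared was 0.277.

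**Figure D2:**
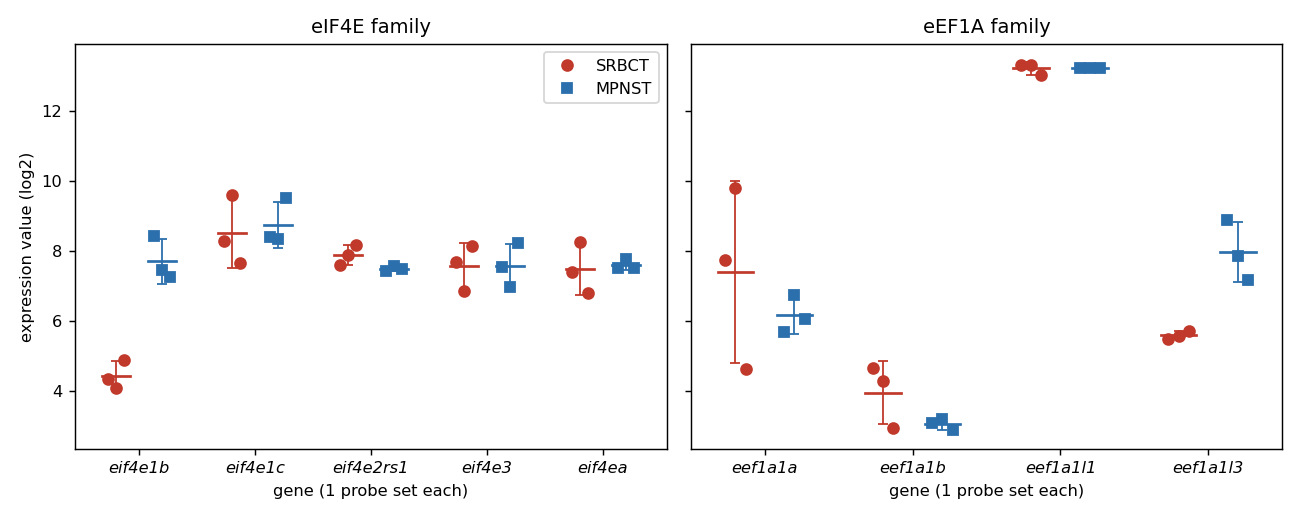
Expression values (log2) of the eIF4E family (left) and the eEF1A family (right) on each array, with SRBCT as circles and MPNST as squares, and with the mean and SD of 3 arrays. The groups are apart for eif4e1b and eef1a1l3, lower in SRBCT, and for eif4e2rs1, higher in SRBCT by 0.40. They overlap for the other genes shown.

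Proteins that hold eIF4E back from eIF4G showed small differences in both directions. eif4ebp3l, a 4E-binding protein gene, was at 9.91, 9.52 and 9.85 in SRBCT and at 9.07, 9.36 and 8.92 in MPNST. The groups did not overlap, but the gene did not pass (difference 0.64, SE 0.21, limma adjusted p 0.273). eif4ebp1 differed by 0.37 and eif4ebp2 by -0.21, both with overlap. The contrast of eif4ebp2 with eif4ebp3l was -0.85 (SE 0.28, exact permutation p 0.1, adjusted p 0.277). eif4enif1, which encodes the transporter 4E-T that binds eIF4E in stored mRNA particles and is known from oocytes, was at 6.23 to 6.83 in SRBCT and at 6.65 to 6.83 in MPNST (difference -0.32, adjusted p 0.526). Its 95% interval of -0.87 to 0.23 did not reach the difference of eif4e1b.

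The eIF4G2 paralogs had differences of opposite sign, and neither gene passed. eIF4G2, also called DAP5, lacks the part that binds eIF4E and serves initiation without the cap-binding protein. eif4g2a was at 8.72, 8.35 and 7.76 in SRBCT and at 9.05, 9.88 and 9.23 in MPNST (difference -1.11, SE 0.34, limma adjusted p 0.244), and its other probe set differed by -0.66. eif4g2b had the opposite sign, with 9.58, 8.80 and 8.52 in SRBCT and 7.92, 8.15 and 8.26 in MPNST (difference 0.86, SE 0.31, adjusted p 0.293). By the brightest probe set of each gene, the 3 arrays of a group lay beyond those of the other group. At the other probe set of eif4g2a the groups overlapped. The within-array contrast of the pair was -1.97 (SE 0.26, exact permutation p 0.1, adjusted p 0.277) and stayed between -2.12 and -1.74 with each array left out. eif4g3a (-0.30) and eif4g3b (0.39) also had opposite signs, with overlap, and a contrast of -0.70 (SE 0.23, exact permutation p 0.1, adjusted p 0.277). The 3 probe sets of eif4g3a did not share a sign, at -0.30, -0.07 and 0.15.

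Helicase genes and their helpers overlapped between the tumours. eif4a1a differed by -0.37 (interval -1.13 to 0.38) and eif4a1b by 0.29 (interval -0.37 to 0.95). eif4a2 had values of 6.73, 9.02 and 8.29 in SRBCT and of 7.83, 8.53 and 9.05 in MPNST, with SRBCT 1 the lowest of the 6 arrays (difference -0.46). eif4a3, whose product sits in the exon junction complex laid down at splicing, differed by 0.05. The within-array contrast of eif4a1a with eif4a3 was -0.43 (SE 0.10, exact permutation p 0.1, adjusted p 0.277). eif4bb, for the helicase helper eIF4B, was at 9.78 to 9.84 in SRBCT and at 8.45, 9.87 and 9.94 on MPNST 1, 2 and 3. Its difference of 0.40 thus rested on MPNST 1 and was -0.09 without that array. eif4h, for the related helper eIF4H, differed by 0.09.

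No subunit gene of eIF3 was called. Of 14 measured genes 11 had a difference above 0 (78.6%, against 55.9% of all genes), and the median was 0.48, beside 0.07 for all genes, or 0.23 without MPNST 1. Differences ranged from -0.38 to 0.65. In 2 of the 14 the groups did not overlap, against 12.3% of all genes higher in SRBCT without overlap. eif3m, for a subunit of the octameric core, was at 11.04, 10.89 and 11.16 in SRBCT and at 10.21, 10.23 and 10.70 in MPNST (difference 0.65, SE 0.21, limma adjusted p 0.271). eif3s10, whose human ortholog is the large subunit gene EIF3A, was at 10.03, 10.25 and 10.15 in SRBCT and at 9.47, 9.43 and 9.82 in MPNST (difference 0.57, SE 0.20, adjusted p 0.281). In both genes every SRBCT array lay above every MPNST array.

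The remaining eIF3 subunits overlapped and mostly had MPNST 1 as their lowest array. eif3ba, the RNA-binding scaffold subunit, was at 11.21, 11.45 and 11.06 in SRBCT and at 10.14, 11.20 and 10.59 in MPNST (difference 0.60, adjusted p 0.412). eif3i, a WD-repeat subunit, was at 11.61, 11.64 and 11.52 in SRBCT and at 10.48, 11.33 and 11.57 on MPNST 1, 2 and 3 (difference 0.46, or 0.14 without MPNST 1), so that 2 MPNST arrays came near the SRBCT level. eif3d, known to bind the cap of some mRNAs, differed by 0.49, eif3c by 0.55, eif3f by 0.42, eif3ea by 0.59 and eif3ha by 0.55. The paralogs eif3eb (0.31) and eif3hb (0.41) had the same sign as eif3ea and eif3ha. eif3g, which acts in scanning, differed by -0.01 (interval -0.60 to 0.58). The loosely bound subunit eIF3j was the exception in sign, with -0.30 for eif3ja and -0.38 for eif3jb, both with overlap (adjusted p 0.674 and 0.638).

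All 5 subunit genes of eIF2B were above 0, against 55.9% of all genes, with a median of 0.44 and no call. In 2 of the 5 the groups did not overlap, against 12.3% of all genes higher in SRBCT without overlap. eif2b5, for the catalytic subunit, was at 8.21, 8.37 and 8.34 in SRBCT and at 6.81, 7.71 and 8.16 on MPNST 1, 2 and 3 (difference 0.75, SE 0.36, limma adjusted p 0.387). eif2b4, a subunit of the regulatory part, was at 7.90, 7.52 and 7.54 in SRBCT and at 6.88, 7.26 and 7.49 in MPNST (difference 0.44, adjusted p 0.423). In both the nearest arrays of the groups were at most 0.05 log2 units apart, and the eif2b5 difference was 0.37 without MPNST 1. eif2b1 differed by 0.51, eif2b2 by 0.26 and eif2b3 by 0.34, all with overlap, and eif2b3 by 0.00 without MPNST 1.

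**Figure D3:**
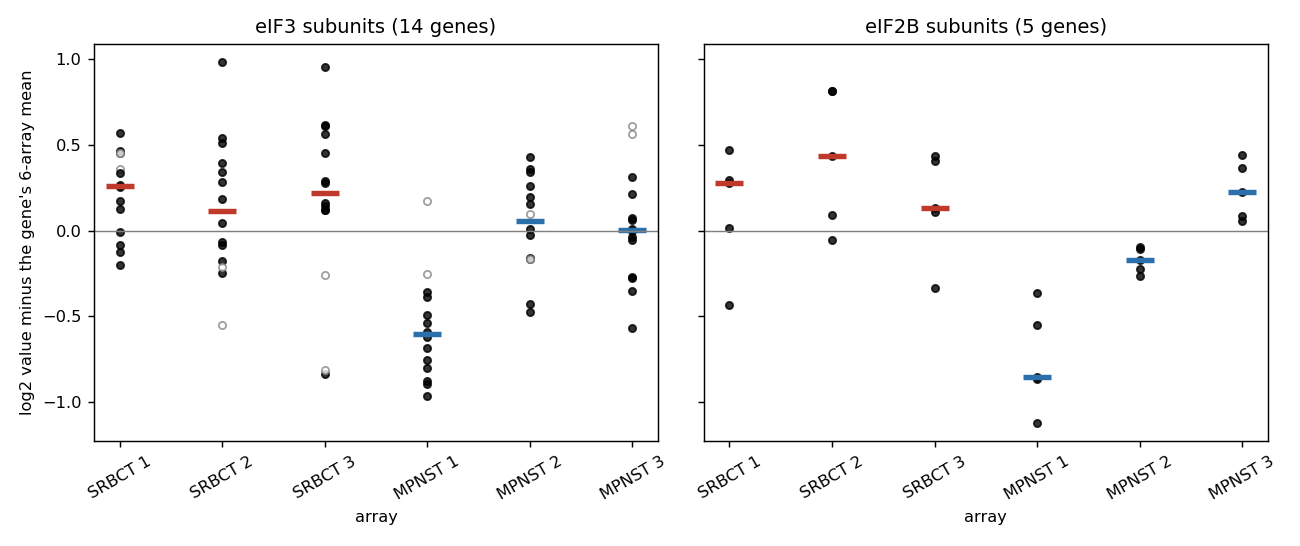
Log2 values of the 14 eIF3 genes (left) and the 5 eIF2B genes (right) on each array, as deviations from each gene's 6-array mean, with the eIF3j genes as open circles and coloured bars for the median. The median was -0.61 (eIF3) and -0.86 (eIF2B) on MPNST 1, with -0.17 to 0.44 on the remaining 5.

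Low values on MPNST 1 were frequent in some complexes and not in others. MPNST 1 was the lowest or tied lowest of the 6 arrays for 32 of the 64 genes, against 25.2% of all genes and 23.8% of genes at or above the median level. The count was 10 of 14 for eIF3, 5 of 5 for eIF2B, 28 of 51 for all initiation factors and 4 of 13 for elongation factors. In the eIF4E family it was 1 of 5, in the eIF4E-binding group and the eIF4G family 1 of 4 each, and in the eIF4A family 0 of 4. Relative to each gene's 6-array mean, the median of the 64 genes was 0.05, 0.16 and 0.12 on SRBCT 1, 2 and 3 and -0.38, 0.01 and 0.06 on MPNST 1, 2 and 3. Without MPNST 1 the median difference of the 64 was 0.07, against 0.05 for all genes. In that fit 35 of the 64 were above 0, against 4834 of all 8793 genes. In that fit 11 of 14 eIF3 genes were above 0, and the eIF2B median was 0.21, with 4 of 5 above 0. MPNST 1 is also the array with high liver markers and the highest oocyte markers.

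**Figure D4:**
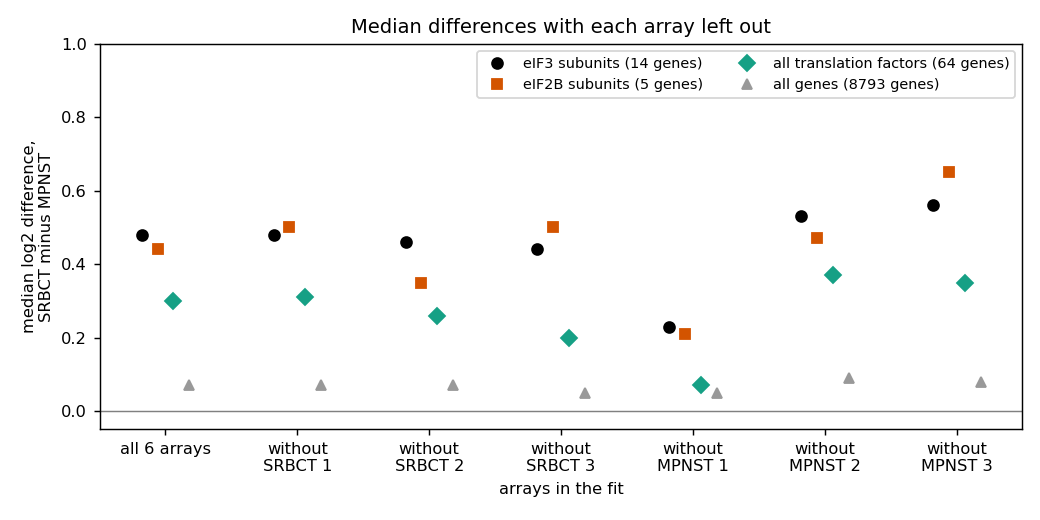
Median log2 difference, SRBCT minus MPNST, of the eIF3 genes, the eIF2B genes, all 64 translation factor genes and all 8793 genes in the fit of all 6 arrays and with each array left out. The median of the 64 genes was 0.07 without MPNST 1 and between 0.20 and 0.37 in the other fits.

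Other genes around eIF2 gave differences of up to 1 log2 unit without a call. eif2s2, the beta subunit, was at 10.87, 10.59 and 10.16 in SRBCT and at 8.48, 9.48 and 10.66 on MPNST 1, 2 and 3 (difference 1.0, SE 0.56, limma adjusted p 0.439), with the MPNST arrays far apart and a difference of 0.47 without MPNST 1. The alpha subunit paralogs, which carry the stress phosphorylation site, differed by -0.15 (eif2s1a) and 0.34 (eif2s1b), both with overlap. eif2a, an initiator tRNA factor distinct from eIF2, was at 6.41, 7.34 and 6.56 in SRBCT and at 5.52, 6.05 and 6.0 in MPNST, without overlap (difference 0.91, SE 0.31, adjusted p 0.281). eif2d, which acts in reinitiation and ribosome recycling, was at 7.66, 7.75 and 6.55 in SRBCT and at 5.96, 6.18 and 6.87 in MPNST (difference 0.98, SE 0.41, adjusted p 0.334). The only eIF2 kinase measured was eif2ak3, the endoplasmic reticulum stress kinase PERK. Its probe sets disagreed, at -0.81 for the highest one (adjusted p 0.349) and at -0.01 and 0.36 for the others, so its direction is uncertain.

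No gene of scanning, subunit joining or eIF5A had separated groups or a call. eif1axa differed by -0.43 (interval -0.96 to 0.11) and eif1axb, its paralog in start codon choice, by -0.01. The other probe sets of eif1axb differed by -0.37 and -0.38, and that of eif1axa by -0.21. eif5, which activates the GTPase of eIF2, differed by -0.15, and eif5b, which joins the ribosomal subunits, by -0.11. eif5a, the hypusine-carrying factor that helps stalled ribosomes, was at 11.83, 11.87 and 11.82 in SRBCT and at 11.07, 12.08 and 11.99 on MPNST 1, 2 and 3 (difference 0.13, interval -0.61 to 0.87). eif5a2 differed by 0.15, and each eIF5A gene had a second probe set of the opposite sign (-0.38 and -0.07). eif6, which keeps free large subunits from joining, was at 8.92, 8.83 and 9.45 in SRBCT and at 7.64, 8.14 and 9.62 on MPNST 1, 2 and 3 (difference 0.60, SE 0.53, adjusted p 0.597), and its difference was 0.19 without MPNST 1.

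Among elongation factors the eEF1A paralogs differed most from each other. eef1a1l1, the main zebrafish eEF1A gene, ranged least of the family, at 13.31, 13.33 and 13.02 in SRBCT and at 13.22, 13.23 and 13.23 in MPNST (difference -0.01, interval -0.44 to 0.43). eef1a1l3 was low in SRBCT, with 5.49, 5.58 and 5.72, and higher in MPNST, with 8.88, 7.87 and 7.17. Without overlap, its difference was -2.38, a 5.19-fold lower value in SRBCT (SE 0.43), and it did not pass (limma adjusted p 0.0892). It passed when probe sets with a mean under 5.57 were left out (adjusted p 0.0379), when 2.23% of the probe sets tested were called lower. Its SRBCT mean of 5.6 was barely above that level, and its MPNST mean was 7.97. Over the alternatives its adjusted p was at most 0.3. Like eif4e1b and the oocyte markers, eef1a1l3 was highest on MPNST 1. The contrast of eef1a1l3 with eef1a1l1 was -2.37 (SE 0.53, exact permutation p 0.1, adjusted p 0.277).

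The other eEF1A paralogs divided the SRBCT arrays. On SRBCT 1 and 2 eef1a1a was at 7.76 and 9.80, on SRBCT 3 at 4.63, and in MPNST at 5.69, 6.75 and 6.07 (difference 1.23, SE 1.24, limma adjusted p 0.647). Values of eef1a1b were 4.65, 4.28 and 2.94 in SRBCT and 3.09, 3.21 and 2.88 in MPNST (difference 0.90, SE 0.45, adjusted p 0.407). SRBCT 1 and 2 lay above every MPNST array in both genes, and SRBCT 3 did not. Without SRBCT 3, eef1a1b was called higher (difference 1.40, adjusted p 0.0251), when 3.67% of all probe sets were called higher. Every eef1a1b value lay under 5.57, the median level of all tested probe sets, so this call is of a dim probe set. nkx2.2a, given above, and sox9b, a neural crest and glial regulator, were also lower on SRBCT 3 than on SRBCT 1 and 2. sox9b was at 11.62, 11.60 and 5.19 in SRBCT and 4.38 to 4.53 in MPNST. Unlike the eEF1A paralogs, nkx2.2a (4.18) and sox9b (5.19) on SRBCT 3 still lay above every MPNST array. Both of these SRBCT 3 values were dim, under the median level of 5.57.

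Exchange factor and translocation genes had no call. The eEF1B subunit genes eef1b2, eef1db and eef1g differed by 0.29, 0.51 and 0.16, none with separated groups. eef1db was at 11.01, 10.37 and 12.25 in SRBCT and at 10.95, 10.51 and 10.63 in MPNST, so that its difference came from SRBCT 3 and was -0.01 without that array. eef1e1, for a part of the multi-tRNA synthetase complex, differed by 0.51 and was lowest on MPNST 1 (6.54), without which the difference was 0.02. eef2b, for the translocation factor eEF2, was at 12.45, 12.94 and 12.97 in SRBCT and at 11.97, 12.31 and 12.46 in MPNST (difference 0.54, SE 0.24, limma adjusted p 0.354). The nearest arrays of the groups crossed by 0.01 log2 units. eef2l2, a related gene, differed by 0.76 with a wide interval of -1.07 to 2.59, and its other probe sets by 0.41 and 0.01. eef2a.1 differed by -0.12. eef2k, the kinase that slows eEF2, was at 5.66, 6.49 and 7.43 in SRBCT and at 7.14, 7.91 and 7.26 in MPNST (difference -0.91, SE 0.48, adjusted p 0.42). eef1akmt2, for a methyltransferase of eEF1A, differed by 0.08.

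Paralogs were compared as 36 pairs in 13 families. In 13 of the 36 the within-array differences did not overlap between the groups, beside 19.9% of the 1980 other pairs among the 64 genes. Pairs that share a gene are not independent, so these shares were not tested against each other. Each of the 13 had an exact permutation p of 0.1, the lowest possible, and an adjusted p of 0.277, so no pair passed. Of the 13, 7 involved eif4e1b or eef1a1l3, and these were all the pairs that hold either gene. Most pairs without these genes overlapped. The others of the 13 were eif4ebp2 with eif4ebp1 (-0.58) and eif4ebp3l, eif4g2a with eif4g2b, eif4g3a with eif4g3b, eif4a1a with eif4a3, and eef2a.1 with eef2b (-0.66). For eef1a1l3 with eef1a1a the contrast was -3.60 (SE 1.70), and the nearest arrays of the groups nearly touched. The paralog pairs of eIF3, eIF2 alpha, eIF1A and eIF5A had contrasts of -0.50 to -0.02, with overlap.

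Among 63 measured genes of translation outside these families, such as poly(A)-binding proteins, tRNA synthetases, release factors and regulators, 1 fell and 0 rose. Of all genes 0.785% fell and 0.091% rose. The median difference of the 63 was 0.22, beside 0.07 for all genes, and 42 were above 0, against 55.9% of all genes. The gene that fell was cpeb1b, a form of the polyadenylation factor CPEB1 that holds stored mRNA silent in oocytes. It was at 4.29, 4.09 and 3.70 in SRBCT and at 9.46, 7.78 and 7.12 in MPNST (difference -4.09, SE 0.60, limma adjusted p 0.0487). Its adjusted p ranged from 0.0234 to 0.2 over the alternatives that keep all probe sets, and it passed in 2 of the 6 fits with an array left out, those without SRBCT 3 or MPNST 1. The poly(A)-binding protein genes and dohh below, like the oocyte markers named above, were chosen after their values were seen. pabpc1l, the poly(A)-binding protein known from frog and mouse oocytes, was at 4.58, 4.12 and 4.61 in SRBCT and at 7.21, 5.68 and 5.40 in MPNST (difference -1.66, SE 0.50, adjusted p 0.231). pabpc1b, a general poly(A)-binding protein gene, was at 9.63, 10.03 and 9.49 in SRBCT and at 8.06, 8.48 and 8.44 in MPNST (difference 1.39, SE 0.23, adjusted p 0.0712). The brighter pabpc1a, at 11.67 to 12.39 over both groups, differed by 0.10 with overlap (adjusted p 0.864). pabpc4 differed by 1.53, also with overlap (adjusted p 0.409). Without SRBCT 3, pabpc1b (1.5, adjusted p 0.0263) and dohh, for the enzyme that completes hypusine on eIF5A (1.23, adjusted p 0.0322), were called higher. In that fit 3.67% of all probe sets were called higher.

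**Figure D5:**
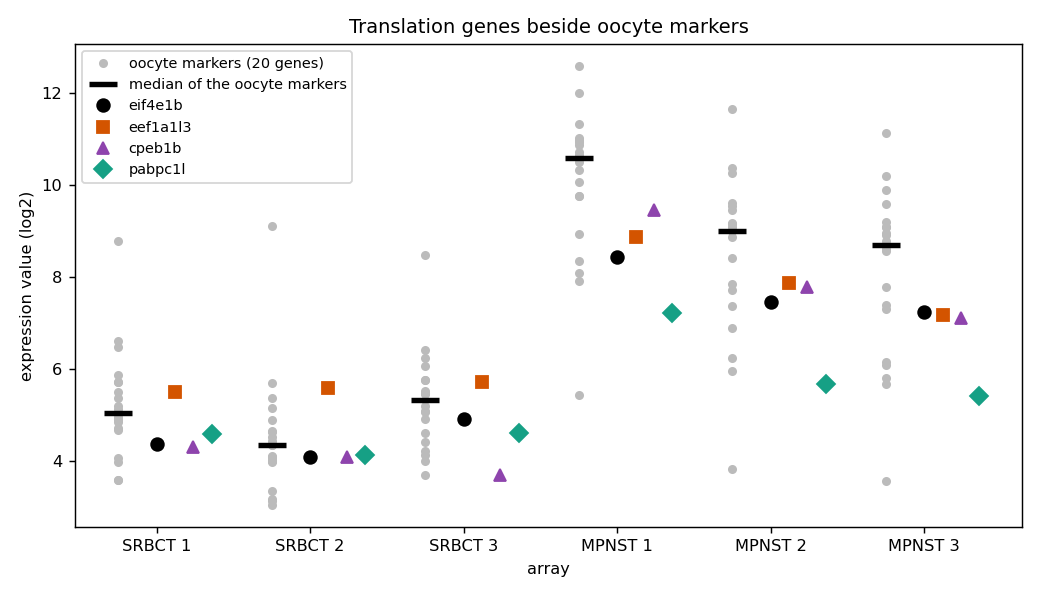
Expression values (log2) on each array of eif4e1b, eef1a1l3, cpeb1b and pabpc1l beside 20 oocyte marker genes (grey dots, median as a black bar). All 4 genes and the marker median are higher on each MPNST array than on any SRBCT array, and highest on MPNST 1. The 4 genes were picked with their values known, so their match to the markers is not a test. eif4enif1, also known from oocytes, overlapped between the groups and is not shown.

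Proliferation markers, which could move with factors of protein synthesis, did not pass in any of 13 measured genes, 1 of which (ccnb1) is also on the oocyte list. Their median level was 8.73, 8.94 and 8.09 on SRBCT 1, 2 and 3 and 8.38, 8.64 and 8.02 on MPNST 1, 2 and 3. The median difference was 0.31, with 8 of 13 above 0, against 55.9% of all genes. Only cdk1 had separated groups (0.87, limma adjusted p 0.138), against 12.3% of all genes higher in SRBCT without overlap. Without SRBCT 3, mcm6 was called higher (1.51, adjusted p 0.0245), when 3.67% of all probe sets were.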

How the data were processed

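The authors deposited log2 expression values, 1 for each probe set on each array. RMA, affy and R 2.2.0 are listed in the submitters' processing notes. Base 2 is taken from RMA, which quantile-normalizes arrays together and draws dim values together, so that differences of dim probe sets are understated. Scanner files and sequences of the members were not used here.

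Of 15617 probe sets, 115 controls were left out. Gene names came from the 2016 platform annotation, checked by Entrez identifier against a RefSeq table (GRCz12tu), where all 80 members matched and no symbol changed. 2 probe sets with a matching symbol among several were left out. Probe sets were tested with limma 3.58.1 in R 4.3.3 (lmFit, eBayes) over all 6 arrays, without covariates, and the method was tested on simulated data. The simulated noise was independent between arrays and probe sets, so that test does not cover arrays that stand apart. Paralogs were compared by exact permutation of within-array differences. The titles call the replicates biological, and the number of arrays limits the precision.

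Members and lists were chosen with earlier results of these data known. Named genes are called members, members with separated groups, the paralog families, the largest and brightest of each complex, and called genes of the list of other translation genes. Alternatives were cyclic loess, centring each array on its median, quantile normalization applied again, weights per array, a block for the replicate number, omission of dimmer probe sets, a robust and trended variance, averaging the probe sets of a gene, a minimum log2 difference of 1 for a call, and omission of each array.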

Additional observations from a re-analysis of the deposited data

How the results depend on the processing

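Every call over all probe sets (14 higher, 126 lower) kept its count when a log2 difference of at least 1 was also asked for, so no difference under 1, the size of most members, was called with 3 arrays a group. The replicate block gave 0 called members (eif4e1b adjusted p 0.0812), 0 called genes in the list of other translation genes and 4 rises over all probe sets. Same-numbered arrays correlated at 0.063, 0.07 and -0.046 in their deviations from the group means, and 3 of 6 arrays correlated best with their own number. With 3 arrays a group these values cannot decide whether the numbers pair the samples, and the labels state no pairing. Called members lower in SRBCT were 2 without dim probe sets (eif4e1b, which passes that filter only through its MPNST level, and eef1a1l3), and 0 to 1 with an array left out, where those higher were 0 to 1. Rises over all probe sets were 9 with cyclic loess, 31 without dim probe sets, 83 with array weights (falls 195), and 2 to 569 with an array left out (falls 23 to 571). In the list of other translation genes, falls were 0 with the second quantile normalization, 0 with cyclic loess and 0 to 1 with an array left out, and rises were 1 with cyclic loess, 1 with array weights and 0 to 2 with an array left out.

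The median of the 64 genes ranged from 0.07 to 0.37 with an array left out. The eIF4G median was -0.30 without dim probe sets and -0.15 to 0.14 with an array left out. That of eEF1B was 0.19 with cyclic loess, 0.17 with array weights and 0.14 to 0.42 with an array left out. The causes were not tested.

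No gene named with a call reversed, and 19 small uncalled differences changed sign. With an array left out, the differences ranged from -0.20 to 0.12 for eif1axb, -0.32 to 0.04 for eif2s1a, -0.19 to 0.17 for eif3g, -0.78 to 0.19 for eif4e1c, -0.32 to 0.34 for eif4e3, -0.50 to 0.22 for eif4ea, -0.96 to 0.18 for eif4a2, -0.22 to 0.33 for eif4a3, -0.09 to 0.66 for eif4bb, -0.24 to 0.34 for eif4h, -0.29 to 0.10 for eif5, -0.31 to 0.08 for eif5b, -0.20 to 0.31 for eif5a, -0.14 to 0.52 for eif5a2, -0.06 to 0.09 for eef1a1l1, -0.01 to 0.93 for eef1db, -0.43 to 0.05 for eef2a.1 and -0.34 to 0.29 for eef1akmt2. With median centring they were 0.01 for eif1axb, 0.01 for eif3g, 0.01 for eif4e3 and 0.02 for eef1a1l1. With the second quantile normalization they were 0.05 for eif1axb, 0.08 for eif3g and 0.05 for eif4e3. With array weights they were 0.09 for eif1axb, -0.03 for eif2b3, 0.10 for eif4e3, -0.20 for eif4h, -0.04 for eif5a, 0.03 for eef1a1l1 and -0.14 for eef1akmt2. With all probe sets of a gene averaged, eif5a was at -0.13.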
